A study of Mus musculus with 6 samples.

Results

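The 9 genes Fgf21, Gdf15, Fetub, Ahsg, Angptl4, Angptl6, Lect2, Inhbe and Inhba encode factors that the liver secretes, and they were picked by name from the 18419 genes with a count in the files. Each was compared between the livers of male Mettl14f/f mice on a high-fat diet (HFD) that received AAV8-TBG-Cre (n = 3) and those that received AAV8-TBG-GFP (n = 3). Both vectors are adeno-associated viruses whose TBG promoter is restricted to hepatocytes, so Cre is meant to delete the floxed alleles in those cells and to leave Mettl14 intact in the other cells of the liver. All 6 mice carried the floxed alleles, began HFD at 8 weeks of age, received a vector into the tail vein after 10 weeks of HFD and gave livers 8 weeks later. The labels call the genotype of the GFP mice WT and that of the Cre mice METTL14 KO. METTL14 is the structural partner of METTL3 in the complex that writes N6-methyladenosine (m6A) on mRNA. Whether the mice were fed or fasted when the livers were taken is not given in the sources used here.

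Hepatokines are proteins that hepatocytes release into the blood and that act on other tissues or on the liver itself. FGF21 signals through FGF receptors with the co-receptor beta-klotho, and it is known to be induced by fasting through PPAR alpha and by the integrated stress response through ATF4. GDF15 signals through GFRAL in the hindbrain and lowers food intake. ANGPTL4 inhibits lipoprotein lipase, the enzyme that releases fatty acids from circulating triglyceride, and ANGPTL6 is a related factor linked to energy expenditure. Fetuin-A (Ahsg) and fetuin-B (Fetub) are abundant plasma proteins of the cystatin superfamily: fetuin-A binds calcium phosphate and inhibits the insulin receptor, and fetuin-B inhibits ovastacin, the protease that hardens the coat of the fertilized egg. LECT2 is a chemotactic hepatokine, and Inhbe and Inhba encode the beta E and beta A subunits of activins, ligands of the TGF beta family.

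The libraries held 20356440 to 21010508 counts, and the 10 most abundant genes took 15.8% to 17.7% of them. Levels are given as CPM, the counts scaled to library size. Mettl14 itself was at 6.18 ± 0.326 CPM (SD, n = 3) in the GFP livers and 5.07 ± 0.275 in the Cre livers (log2 fold change -0.29, adjusted p = 0.337 in edgeR, standard error 0.15), which is not a significant difference. Counts over a whole gene cannot tell if the floxed part is missing, so the groups are called by their labels. For male livers of this diet and vector design, taken sooner after the vector, the paper reports less METTL14 protein and lower total m6A with AAV8-TBG-Cre. The library names came in a short form (replicates 1 and 2 of AAV8-TBG-GFP, replicate 1 of AAV8-TBG-Cre) and a long form (the other 3), which the labels do not explain, so values within each form are given where they matter. Hepatocyte markers were high in every liver: the summed level of 8 of them was 84933 to 106485 CPM with AAV8-TBG-GFP and 75043 to 95539 with AAV8-TBG-Cre, with 2 called higher (Cps1, Cyp3a11) and 1 lower (Ttr).

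Markers of some other liver cells differed between the vectors. Over all genes tested, 12.0% were called higher and 8.41% lower. All 8 tested cholangiocyte markers of 9 were higher in AAV8-TBG-Cre, with a summed level of 278 to 556 CPM against 51.7 to 106. Of the macrophage and Kupffer cell markers, 5 of 8 were higher (239 to 329 against 161 to 196 CPM), as were 3 of 8 stellate cell and fibroblast markers (403 to 839 against 219 to 334). Of 4 tested neutrophil markers of 5, 3 were higher and 1 lower (14.0 to 16.8 against 10.1 to 10.6). For the endothelial markers 1 of 8 was lower, near the share of all genes, and the sums overlapped (158 to 191 against 156 to 248). The 1 tested B cell marker of 4 was higher, the 1 tested T and NK cell marker of 6 was not called, and the sums were 1.59 to 3.96 against 1.33 to 1.47 and 1.19 to 2.51 against 0.890 to 1.89 CPM. Adipocyte markers summed to 11.2 to 14.0 against 22.9 to 32.9 CPM, with 1 gene of 3 tested called lower (Cfd). Mean Cfd was 18.1 CPM with AAV8-TBG-GFP and 0.668 with AAV8-TBG-Cre, so the sum followed this gene. The means of Fabp4 (9.50 and 10.2) and Lep (0.393 and 0.677) did not fall. The defining markers Adipoq and Plin1 were under 1 CPM in every liver and not tested. The part of these cells in the differences below was not tested. In bulk RNA, fewer cells of a type and less RNA per cell cannot be told apart.

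The promoters of these genes differed in a few short motifs, and no PPAR alpha element was among those searched. Windows of 250 bases before to 50 after the transcription start were available for 8 of the 9 genes (RefSeq, GRCm38.p6, 10 windows). Angptl4 had none, and both strands of the others were searched. The C/EBP-ATF composite motif TGATGNAA, the kind of element that ATF4 binds, lay in the windows of Fgf21 and Inhbe and in 3.97% of all 32851 windows. The E-box CACGTG lay in those of Fgf21 and Gdf15 (7.15% of all), TTGCNNAA, a pair of C/EBP half-sites, in those of Ahsg and Inhba (10.8%), and TATAAA in those of Fgf21, Fetub and Inhba (13.6%). The cAMP response element TGACGTCA lay in none of the 10 windows and in 1.79% of all. No motif matched in the windows of Lect2 and Angptl6, and a match is a run of letters only. The stretches of 3 promoters are shown, the pair with the C/EBP-ATF match and that of Ahsg, the one gene of the 9 called higher. Capitals mark the motifs, read 5′ to 3′ on the strand of the gene. For Fgf21 the capitals are the reverse complement of the C/EBP-ATF match (139 to 132 bases before the start), the E-box (50 to 45) and the TATA box (28 to 23). For Inhbe they mark the reverse complement of the C/EBP-ATF match (181 to 174 bases before the start), and for Ahsg that of the C/EBP pair (32 to 25). The stretches are chr7:45615491-45615640 (minus strand), chr10:127351949-127352068 (minus strand) and chr16:22891895-22892014 (plus strand).

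Fgf21 promoter: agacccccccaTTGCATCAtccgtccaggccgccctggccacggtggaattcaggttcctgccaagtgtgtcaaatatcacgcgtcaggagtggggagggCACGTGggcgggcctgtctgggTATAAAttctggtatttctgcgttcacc
Inhbe promoter: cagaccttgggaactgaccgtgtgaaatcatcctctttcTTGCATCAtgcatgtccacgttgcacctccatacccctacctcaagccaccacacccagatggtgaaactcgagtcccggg
Ahsg promoter: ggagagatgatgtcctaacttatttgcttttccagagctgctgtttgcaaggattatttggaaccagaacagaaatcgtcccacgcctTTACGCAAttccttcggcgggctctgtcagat

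Since METTL14 is an m6A writer, the transcripts were searched for DRACH, the degenerate motif in which the complex methylates the adenosine, in GENCODE vM1 on NCBIM37. The 9 transcripts held 17.9 (Angptl6) to 28.5 (Lect2) DRACH motifs per kb, against a median of 20.2 over 22594 genes (quartiles 17.7 and 22.8). The common form GGACT occurred 5 times in Angptl4 and in Inhbe, 3 times in Ahsg and in Angptl6, 2 times in Gdf15 and in Fgf21, 1 time in Fetub and in Inhba, and 0 times in Lect2. It lay within 200 nucleotides of the end of the stop codon in Ahsg and Fgf21, as in 34.7% of all genes. For the genes that were called below and for Fgf21, the GGACT nearest to the stop codon is shown in capitals with 8 flanking nucleotides on each side. The nucleotide number is that of the A in GGACT, counted from the 5′ end of the transcript. Methylation itself was not measured in these libraries.

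Gdf15, nucleotide 710, coding: agccgagaGGACTcgaactca
Angptl4, nucleotide 1755, 3′ UTR: ttaatggcGGACTcagtcata
Angptl6, nucleotide 1130, coding: ctcctagaGGACTgggggggc
Ahsg, nucleotide 943, coding: ttccacgaGGACTttcagacc
Fgf21, nucleotide 636, coding: cctcagaaGGACTccccaaac

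In FPKM, which scales counts by transcript length so that genes can be compared, the 9 levels differed widely. Ahsg had a mean of 6410 FPKM over the 6 livers and ranked number 7 of all genes. Fetub followed with 352, Lect2 with 136, Angptl4 with 86.8, Inhbe with 51.0, Gdf15 with 20.3, Fgf21 with 11.3, Angptl6 with 4.18 and Inhba with 1.37 FPKM. The ranges over the 6 livers did not overlap between Ahsg and Fetub, between Fetub and Lect2, or between Angptl6 and Inhba. Neighbours from Lect2 down to Angptl6 overlapped over the 6 livers. Within AAV8-TBG-GFP alone, Lect2 still overlapped Angptl4, Gdf15 overlapped Fgf21 and Fgf21 overlapped Angptl6. Within AAV8-TBG-Cre alone, Angptl4 overlapped Inhbe, Gdf15 overlapped Fgf21 and Fgf21 overlapped Angptl6. Where a pair overlapped within a group, its order there is not resolved beyond the spread between livers. Inhbe and Gdf15 overlapped in neither group, with Inhbe the higher in each. The range over the 6 livers differed between the genes too. The highest liver exceeded the lowest 7.60-fold for Fgf21, 4.39-fold for Gdf15, 3.27-fold for Angptl6 and 2.88-fold for Angptl4, but 1.30-fold for Fetub. This range pools both vectors, so it holds any difference between them together with the spread between mice.

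**Figure D1:**
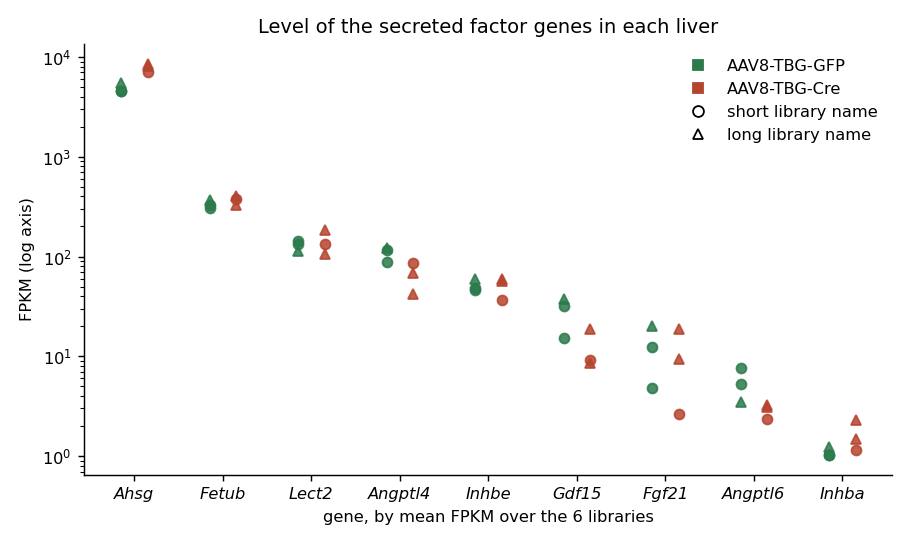
FPKM of each gene (log axis) in each liver, ordered by the mean over the 6 libraries, with green points for AAV8-TBG-GFP and red points for AAV8-TBG-Cre, circles for short and triangles for long library names. Ahsg stands above all others with a mean of 6410 FPKM, Inhba is lowest with 1.37, and the points of Fgf21 spread over a 7.60-fold range.

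Between the vectors, Gdf15, Angptl4 and Angptl6 were lower with AAV8-TBG-Cre, and Ahsg was higher, at the study's threshold, an unadjusted p-value under 0.05 with a fold change of at least 1.2. The other 5 (Fgf21, Fetub, Lect2, Inhbe, Inhba) were not called. All 9 were among the 13431 genes tested with edgeR's quasi-likelihood test. Over all of these, 8.41% (1129 genes) were called lower and 12.0% (1618) higher, beside 3 and 1 of the 9, so the share that was higher is close to that of all genes. The upper quartile scaling turned this whole-table split into 737 lower and 1922 higher, and limma on log2(FPKM + 1) into 365 and 1880, where the median of all genes rose by 0.11 on the log2 scale, with the same 4 of the 9 called under both. The median log2 fold change of the 9 was -0.20, against -0.0065 over all genes tested. CPM did not overlap between the groups for the same 4 genes, as for 27.0% of all genes. After Benjamini-Hochberg adjustment over all genes, 0 of the 9 had an adjusted p under 0.05 in edgeR, where 125 genes (0.931%) did. DESeq2, the tool the study names, called the same 4 of 9 by adjusted p, beside 7.44% of its 15559 genes with an adjusted p. Limma on log2(FPKM + 1) called 0 of the 9 by adjusted p. The count of 125 was itself set by single livers: leaving out GFP replicate 1, 2 or 3 gave 7, 0 or 16, and leaving out Cre replicate 1, 2 or 3 gave 928, 0 or 17. Where it was 0, 2079 (GFP replicate 2) and 1899 (Cre replicate 2) genes were still called at the unadjusted threshold. Without AAV8-TBG-Cre replicate 1, 1 of the 9, Angptl4, passed. Nothing in the labels says that the mice came from separate cages or litters, so p-values measure the spread between these livers.

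**Figure D2:**
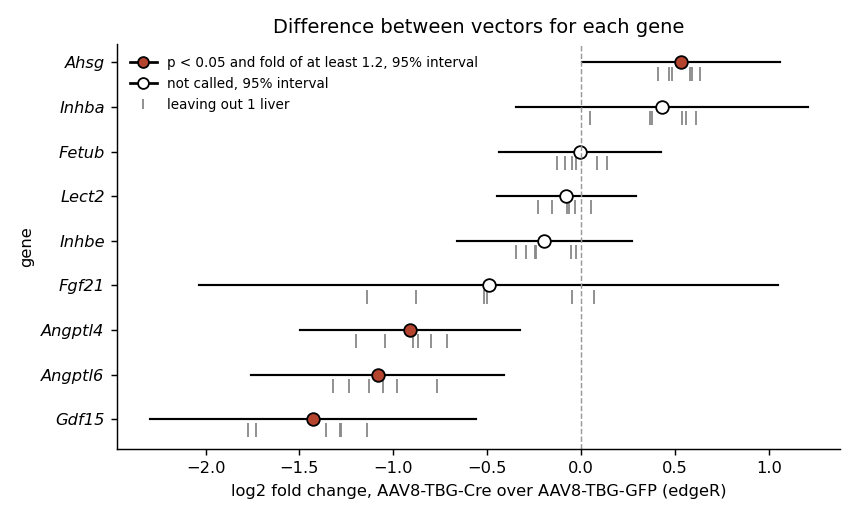
Log2 fold change of each gene (edgeR, AAV8-TBG-Cre over AAV8-TBG-GFP) with its 95% interval. Red points were called at an unadjusted p under 0.05 and a fold of at least 1.2, white points were not, and grey ticks give the value when 1 liver is left out. The intervals of Gdf15, Angptl6 and Angptl4 lie wholly below 0 and that of Ahsg just above it, while Fgf21 has an interval from -2.03 to 1.05.

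Gdf15 (NCBI gene 23886, chr8:70629393-70632470 in GRCm38.p6), the stress-induced hormone that acts on the hindbrain, had the largest fitted decrease, with an interval that overlaps those of Angptl6 and Angptl4. Without AAV8-TBG-GFP replicate 3 the log2 fold change of Angptl6 was larger (-1.32 against -1.14). Gdf15 was at 35.5, 17.1 and 44.4 CPM in the 3 GFP livers, in the order of their replicate numbers here and below, and 9.54, 17.0 and 9.34 CPM in the 3 Cre livers. The groups only just failed to overlap, since AAV8-TBG-GFP replicate 2 and AAV8-TBG-Cre replicate 2 were nearly level. In FPKM, which is not TMM-scaled, they did overlap, at 15.2 in the former and 18.8 in the latter. The mean was 32.3 ± 13.9 CPM (SD, n = 3) against 12.0 ± 4.39, which edgeR fitted as 2.69-fold lower (log2 fold change -1.43, standard error 0.37, 95% interval -2.29 to -0.56, adjusted p = 0.0948). DESeq2 gave an adjusted p of 0.00391, and over the 17 alternative fits the adjusted p ran from 0.00391 to 0.270 with the call kept in all of them. Within the short-named libraries the log2 ratio was -1.46 and within the long-named ones -1.75.

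Angptl4 (NCBI gene 57875, chr17:33774900-33781575), the fasting-induced inhibitor of lipoprotein lipase, fell as well. Its level was 228, 178 and 257 CPM in the 3 AAV8-TBG-GFP livers and 160, 110 and 82.4 CPM in the 3 AAV8-TBG-Cre livers. Each AAV8-TBG-Cre liver lay below each AAV8-TBG-GFP liver, in FPKM as well (42.5 to 85.2 against 88.2 to 122). EdgeR fitted it as 1.88-fold lower, from 221 ± 39.9 to 118 ± 39.4 CPM (log2 fold change -0.91, standard error 0.25, 95% interval -1.50 to -0.32, adjusted p = 0.107). The decrease was larger within the long-named libraries (log2 ratio -1.42) than within the short-named ones (-0.34), where AAV8-TBG-Cre replicate 1 is the only Cre liver. Without that liver the log2 fold change was -1.20 and the adjusted p 0.0280. The adjusted p lay between 0.0104 (DESeq2) and 0.275 over all alternative fits, and the call was kept in all 17.

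Angptl6 (NCBI gene 70726, chr9:20873808-20879822) fell from a low level. It was at 8.54, 12.5 and 5.92 CPM in the AAV8-TBG-GFP livers and at 3.58, 4.07 and 5.10 CPM in the AAV8-TBG-Cre livers. The groups were separate, but AAV8-TBG-GFP replicate 3 sat close to the AAV8-TBG-Cre livers, at 3.45 FPKM against at most 3.24. The mean (SD, n = 3) went from 9.0 ± 3.34 to 4.25 ± 0.778 CPM, 2.12-fold lower in the fit (log2 fold change -1.08, standard error 0.29, 95% interval -1.76 to -0.41, adjusted p = 0.0991 in edgeR and 0.0165 in DESeq2, with 0.0165 to 0.274 over the alternatives). The log2 ratio was -1.56 within the short-named and -0.37 within the long-named libraries. The gene overlaps Shfl by 500 bases, and its expected counts were not whole, so fragments at that end may have been divided between both genes. Shfl had 513 to 1235 counts with AAV8-TBG-GFP and 661 to 988 with AAV8-TBG-Cre, while Angptl6 had 75 to 246 counts over the 6 livers. For each of these 3 genes the exact two-sided permutation test of log2 CPM gave p = 0.1, the smallest that 3 mice against 3 allow.

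**Figure D3:**
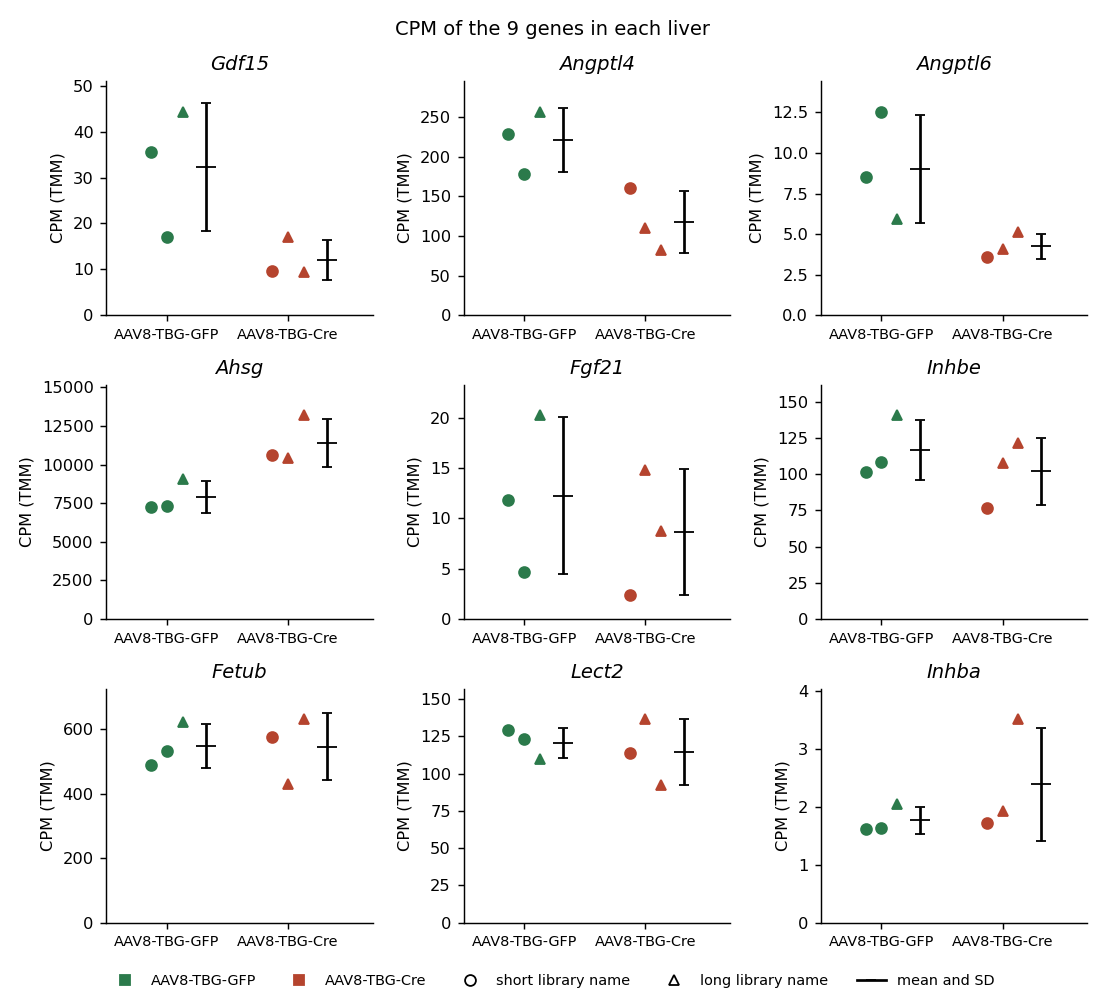
CPM after TMM scaling in each liver for the 9 genes, with the mean and SD beside the points of each group (n = 3) and an axis from 0 in every panel. Gdf15, Angptl4 and Angptl6 lie lower and Ahsg higher in every AAV8-TBG-Cre liver, with 17.1 against 17.0 CPM between the closest livers of Gdf15. The groups overlap for the other 5 genes.

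Ahsg and Fetub lie next to each other on chromosome 16 (chr16:22892015-22899451 and chr16:22918382-22939768, NCBI genes 11625 and 59083), followed by the other cystatin-superfamily genes Hrg and Kng2, and of the pair only Ahsg was called. Ahsg was at 7241, 7329 and 9073 CPM in the AAV8-TBG-GFP livers and at 10605, 10404 and 13184 CPM in the AAV8-TBG-Cre livers. Every AAV8-TBG-Cre liver was above every AAV8-TBG-GFP liver, and the means were 7881 ± 1033 and 11398 ± 1550 CPM (SD, n = 3). The fit gave a 1.45-fold increase (log2 fold change 0.53, standard error 0.23, 95% interval 0.0056 to 1.06, p = 0.0481, adjusted p = 0.235 in edgeR), and the exact permutation test p = 0.1. This call was the least stable of the 4. It was kept in 10 of 17 alternative fits and lost in 7, with the direction the same in all 17 (log2 fold change 0.41 to 0.70, adjusted p 0.0229 in DESeq2 to 0.527). In edgeR it was lost when GFP replicate 1 (log2 fold change 0.47, adjusted p = 0.527), GFP replicate 2 (0.48, adjusted p = 0.479) or Cre replicate 3 (0.41, adjusted p = 0.426) was left out. The transcript NM_013465 carried 99.8% to 99.9% of the Ahsg counts in every liver.

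Fetub was at 489, 533 and 622 CPM with AAV8-TBG-GFP and at 575, 431 and 632 CPM with AAV8-TBG-Cre. The groups overlapped fully, with means of 548 ± 67.7 and 546 ± 104 CPM. The log2 fold change was -0.0050 (standard error 0.18, 95% interval -0.43 to 0.42, adjusted p = 0.992, edgeR), an interval that leaves room for a change of either sign. Its sign turned in 7 of 17 alternatives, of which 4 are the upper quartile and limma fits, where the median of all genes was itself above 0 (0.056 to 0.14). Leaving out AAV8-TBG-GFP replicate 3 gave 0.084 and leaving out AAV8-TBG-Cre replicate 2 gave 0.14. Its 3 transcripts kept similar shares, with NM_021564 at 75.8% to 85.2%, NM_001083904 at 13.6% to 23.0% and NM_001083905 at 1.10% to 3.17%.

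The ratio of both fetuin genes within a liver does not depend on library scaling. Ahsg counts per Fetub count were 14.8, 13.7 and 14.6 in the AAV8-TBG-GFP livers and 18.4, 24.2 and 20.9 in the AAV8-TBG-Cre livers, or 14.4 ± 0.566 against 21.2 ± 2.88 (SD, n = 3). Every AAV8-TBG-Cre ratio was above every AAV8-TBG-GFP ratio (mean difference of the log2 ratio 0.55, exact two-sided permutation test, p = 0.1). This ratio was chosen after its values were seen, as 1 of 5 computed, over which its Benjamini-Hochberg adjusted value was 0.167. Of the other 4, Angptl4 to Lpl, described with lipoprotein lipase, and Angptl4 to Angptl8 (8.20 ± 0.797 against 3.48 ± 3.36) also had an exact permutation p of 0.1 and an adjusted value of 0.167. The ratios of Gdf15 to Fgf21 (2.95 ± 0.732 against 2.07 ± 1.67, exact permutation p = 0.4) and of Inhbe to Inhbc (1.60 ± 0.428 against 1.32 ± 0.218, exact permutation p = 0.5) overlapped between the groups. Of the neighbours, Hrg, Kng1 and Kng2, which encode histidine-rich glycoprotein and the kininogens, had log2 fold changes of -0.13, -0.022 and -0.077, and none was called.

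**Figure D4:**
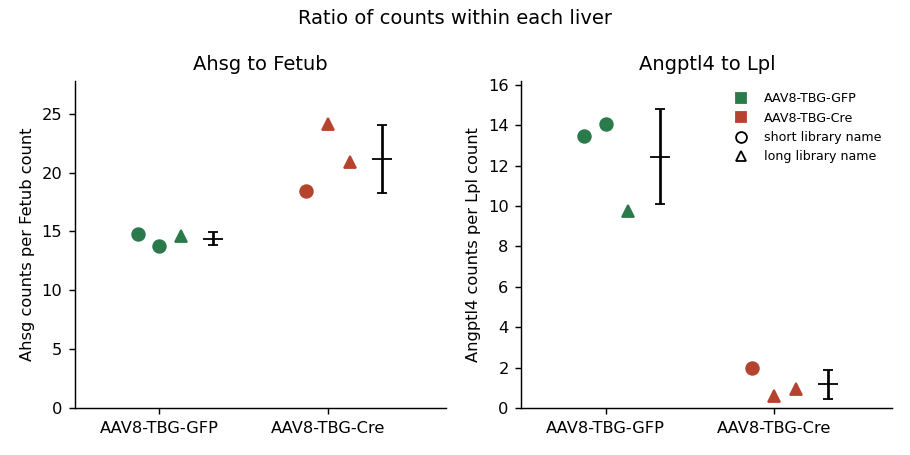
Counts of Ahsg per count of Fetub (left) and of Angptl4 per count of Lpl (right) within each liver, with the mean and SD of each group (n = 3) and axes from 0. The Ahsg to Fetub ratio is 13.7 to 14.8 in AAV8-TBG-GFP and 18.4 to 24.2 in AAV8-TBG-Cre livers, and the Angptl4 to Lpl ratio is 9.75 to 14.1 and 0.609 to 1.96.

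Fgf21 (NCBI gene 56636, chr7:45613890-45615490) varied more between mice than between vectors. It was at 11.8, 4.69 and 20.3 CPM in the AAV8-TBG-GFP livers and at 2.39, 14.9 and 8.76 CPM in the AAV8-TBG-Cre livers. The groups overlapped, and the lowest and highest livers were AAV8-TBG-Cre replicate 1 and AAV8-TBG-GFP replicate 3. The means of 12.3 ± 7.79 and 8.67 ± 6.24 CPM gave a log2 fold change of -0.49 (standard error 0.66, 95% interval -2.03 to 1.05, adjusted p = 0.720, edgeR), and without AAV8-TBG-GFP replicate 3 its sign turned (0.067). The long-named livers were higher than the short-named ones of the same vector, 20.3 against 8.27 CPM on average with AAV8-TBG-GFP and 11.8 against 2.39 with AAV8-TBG-Cre. Within the short form the log2 ratio was -1.79 and within the long form -0.78. Once the name form entered the edgeR fit, the log2 fold change became -1.20 (standard error 0.43, adjusted p = 0.182, the lowest of alternatives that ran to 0.967), and Fgf21 passed the unadjusted threshold.

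Inhbe (NCBI gene 16326, chr10:127349402-127351848), whose promoter shares the C/EBP-ATF match with Fgf21, had the same kind of split with a far smaller spread. It was at 102, 108 and 141 CPM with AAV8-TBG-GFP and at 76.5, 108 and 122 CPM with AAV8-TBG-Cre. The groups overlapped, and in both the long-named livers were at or above the short-named ones. The mean went from 117 ± 20.9 to 102 ± 23.2 CPM (SD, n = 3), with a log2 fold change of -0.20 and an adjusted p of 0.625 in edgeR (standard error 0.20, 95% interval -0.66 to 0.27). With the name form in the fit it was -0.37 and passed the unadjusted threshold (adjusted p = 0.125 in edgeR, the lowest of alternatives that ran to 0.938), with log2 ratios of -0.45 and -0.29 within the short and long forms. What the form of the name stands for is not known, and each form holds 1 liver of one vector and 2 of the other.

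Lect2 (NCBI gene 16841, chr13:56529734-56548559) was at 129, 123 and 110 CPM in the AAV8-TBG-GFP livers and at 114, 136 and 92.3 CPM in the AAV8-TBG-Cre livers. The groups overlapped, and the AAV8-TBG-Cre livers held both the highest and the lowest value. The log2 fold change was -0.078 (standard error 0.16, 95% interval -0.45 to 0.29, adjusted p = 0.816, edgeR). Its sign turned without AAV8-TBG-Cre replicate 3 (0.051). The gene overlaps Fbxl21 on the other strand by 8165 bases. Fbxl21 had 80 to 124 counts where Lect2 had 1918 to 3323.

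Inhba (NCBI gene 16323, chr13:16004256-16031609) was close to the lower end of what these libraries resolve, with 32 to 73 counts. Its level was 1.63, 1.63 and 2.04 CPM in the GFP livers and 1.72, 1.93 and 3.51 CPM in the Cre livers. AAV8-TBG-Cre replicate 3 was the only liver clearly above the rest, and the groups overlapped. The log2 fold change was 0.43 (standard error 0.33, 95% interval -0.35 to 1.21, adjusted p = 0.511, edgeR) and 0.045 without AAV8-TBG-Cre replicate 3.

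The genes whose profile over the 6 livers was most like that of a member were found by the root mean square difference of log2 CPM, each gene centred on its own mean, for the 4 members with an SD of at least 0.5. Angptl4 had the nearest, with Prxl2b at 0.0837, Raet1d at 0.141 and Leap2, an antimicrobial peptide and ghrelin receptor antagonist of the liver, at 0.151. For Angptl6 they were Colec10 (a collectin, 0.162), Ecm1 (0.187) and Gm19757 (0.195). Gdf15 was nearest to 9030619P08Rik (0.220), C730002L08Rik (0.248) and the p53 target Trp53inp1 (0.305). Fgf21 had no gene nearer than 0.293, with Mab21l2, Slc39a5 (0.357) and Npnt (0.376), all near 1 CPM. The measure is not scaled by a member's own SD, which was 0.625 for Angptl4 and 1.13 for Fgf21. Among the members themselves, Gdf15 was 0.525 from Angptl4 and 0.747 from Fgf21. Lect2 and Fetub, neither of them called, lay about as near to Angptl4, at 0.533 and 0.597. These are descriptions over 6 livers of 2 groups, so a difference between the vectors enters the measure together with the spread between mice.

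The receptors, partners and regulators were taken from 9 lists with 94 genes, of which 84 were tested, 14 called higher and 6 lower, beside 12.0% higher and 8.41% lower over all genes tested, so these counts and those of the single lists are given as descriptions. In the angiopoietin-like family and the angiopoietins, 0 of 6 tested genes were called by edgeR at an unadjusted p under 0.05, and DESeq2 called 1 higher and 1 lower. The smallest p was that of Angptl8, a feeding-induced member of the family. It was at 25.2, 22.1 and 34.2 CPM with AAV8-TBG-GFP and at 21.8, 78.2 and 48.9 CPM with AAV8-TBG-Cre. The groups overlapped through AAV8-TBG-Cre replicate 1 (log2 fold change 0.87, adjusted p = 0.277 in edgeR), so the falls of Angptl4 and Angptl6 were not matched by a call in the 6 other tested relatives.

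The lipoprotein lipase system had 1 gene higher and 1 lower of 8. Lpl, the enzyme that ANGPTL4 inhibits, was at 16.9, 12.7 and 26.3 CPM in the AAV8-TBG-GFP livers and at 81.8, 181 and 90.3 CPM in the AAV8-TBG-Cre livers. The groups were widely apart (log2 fold change 2.66, standard error 0.38, adjusted p = 0.0363 in edgeR). Angptl4 counts per Lpl count went from 12.4 ± 2.34 to 1.16 ± 0.708 (SD, n = 3, exact two-sided permutation test, p = 0.1), and this ratio too was chosen after its values were seen. Lmf1, which the lipase needs to mature, was lower in each AAV8-TBG-Cre liver (34.2 to 42.0 against 56.2 to 61.5 CPM, log2 fold change -0.57, adjusted p = 0.0599 in edgeR). Gpihbp1, Lipc, Lipg, Apoc2, Apoc3 and Apoa5 were not called. Macrophages, which are known to express Lpl, are among the cells whose markers were higher in AAV8-TBG-Cre (5 of 8, 239 to 329 against 161 to 196 CPM), and their part in the Lpl level was not tested.

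Of the FGF21 and GDF15 receptors, 6 of 9 genes were tested, 2 were higher and 1 lower. The tested genes were all FGF receptor genes or Klb. Gfral had no count in the files, so these calls do not cover the receptor of GDF15. Fgfr1 rose from 8.90 ± 2.49 to 23.7 ± 6.55 CPM (log2 fold change 1.41, adjusted p = 0.0554 in edgeR) and Fgfr3 from 33.3 ± 7.31 to 57.3 ± 2.68 (0.79, adjusted p = 0.0622). Fgfrl1, a receptor without a kinase domain, fell from 37.9 ± 2.51 to 27.4 ± 6.32 (-0.47, adjusted p = 0.165). Fgfr4, the main FGF receptor of hepatocytes, and Klb, which encodes beta-klotho, had log2 fold changes of 0.25 and -0.36 and were not called.

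In the activin and inhibin list 5 of 15 tested genes were higher and 0 lower. The follistatin-like genes rose most. Fstl3, an activin antagonist, went from 0.478 ± 0.208 to 2.00 ± 0.707 CPM (log2 fold change 2.06, adjusted p = 0.0619 in edgeR), and Fstl1 from 4.86 ± 0.904 to 18.1 ± 8.80 (1.90, adjusted p = 0.0520). Smad3, the transducer of activin and TGF beta signals, rose by 0.68 (adjusted p = 0.0782) and Smad7, its inhibitor, by 0.51 (adjusted p = 0.229) on the log2 scale. Inha, the inhibin alpha subunit, rose by 1.14 (adjusted p = 0.187) from under 0.5 CPM. Inhbb and Inhbc, the remaining beta subunit genes, had log2 fold changes of 0.44 and 0.055 and were not called, and neither was Fst (0.53). Of the stellate cell and fibroblast markers, 3 of 8 were higher in the same livers (403 to 839 against 219 to 334 CPM), and their part in this list was not tested.

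**Figure D5:**
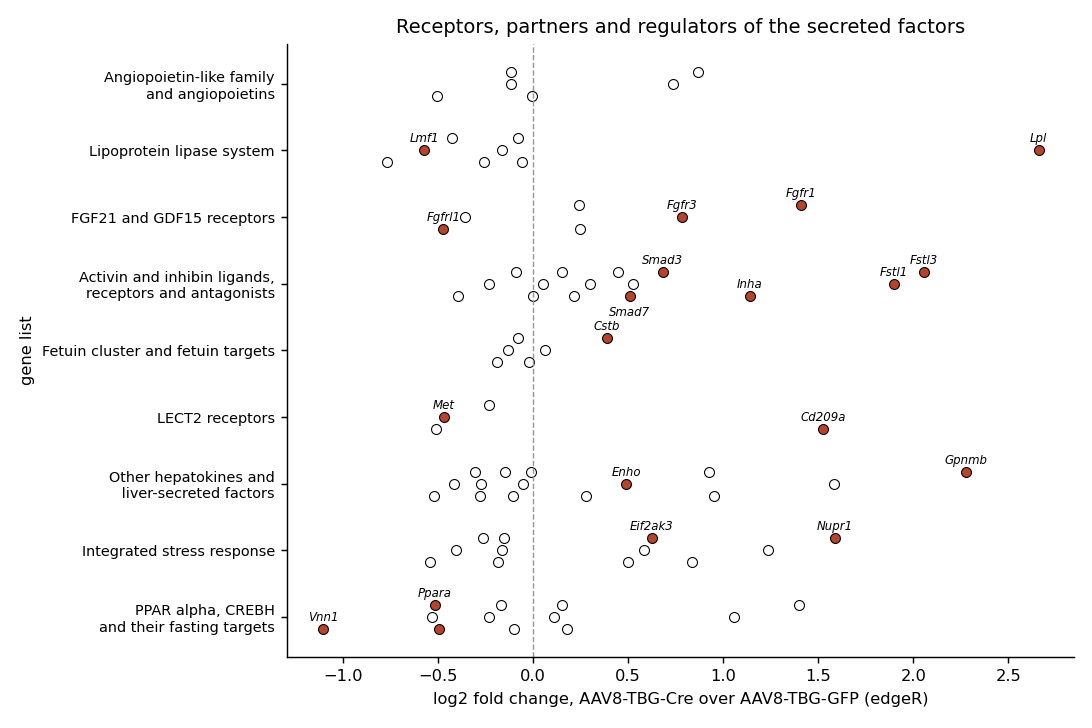
Log2 fold change (edgeR, AAV8-TBG-Cre over AAV8-TBG-GFP) of each tested gene in the 9 lists, 1 row per list, with red points for genes called at an unadjusted p under 0.05 and a fold of at least 1.2, named where the text describes them. Lpl lies farthest to the right at 2.66 and Vnn1 farthest to the left at -1.10, and the angiopoietin-like row has no called gene.

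Of 4 genes for LECT2 receptors, Cd209a, a lectin of dendritic cells, was higher (log2 fold change 1.53, adjusted p = 0.131 in edgeR) at under 1 CPM. Met, the HGF receptor that LECT2 antagonizes, was lower (113 ± 17.6 to 81.5 ± 12.9 CPM, -0.47, adjusted p = 0.161). The groups only just failed to overlap for Met, at 96.8 CPM in AAV8-TBG-GFP replicate 3 and 96.2 in AAV8-TBG-Cre replicate 1. Its call was kept in 11 of 17 alternative fits. Tie1 and Tek were not called. In the list of the fetuin cluster and fetuin targets, 1 of 6 tested genes was higher, the cystatin B gene Cstb (0.39, adjusted p = 0.234), and Insr, the insulin receptor, had a log2 fold change of -0.19 and was not called. Of 15 tested genes for other hepatokines and liver-secreted factors, 2 were higher: Enho, which encodes adropin (0.49, adjusted p = 0.136), and Gpnmb, which macrophages also express (2.28, adjusted p = 0.149, with overlap). Selenop, Rbp4, Tsku, Smoc1 and Igf1 were among the 13 that were not called.

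Of 12 genes of the integrated stress response, which is known to induce Fgf21 and Gdf15, 2 were higher and 0 lower. Nupr1, a stress-induced cofactor, rose by 1.59 (adjusted p = 0.162 in edgeR) and Eif2ak3, the kinase PERK, by 0.62 (adjusted p = 0.191) on the log2 scale, both with overlapping groups. Atf4 had a log2 fold change of -0.15 and Ddit3 of 1.24, and neither was called. Of 12 genes for PPAR alpha, CREBH and their fasting targets, which include known inducers of Fgf21 and Angptl4, 0 were higher and 3 lower. Ppara fell from 598 ± 22.4 to 418 ± 40.8 CPM (-0.52, adjusted p = 0.0970 in edgeR), and Vnn1, a pantetheinase, fell by 1.10 (adjusted p = 0.131) on the log2 scale. The groups did not overlap for either gene. Creb3l3, Cpt1a, Pdk4 and Plin2 were not called. Cyp4a10 and Cyp4a14 were not called either and had log2 fold changes above 0, at 1.40 (standard error 1.00) and 1.06 (standard error 1.16). Of the 12 log2 fold changes in this list, 5 were above 0. The calls of Lpl, Lmf1, Fgfr1, Fgfr3, Fstl1, Fstl3, Smad3, Cd209a, Ppara and Vnn1 were kept in every alternative fit that tested them, whereas each of the other 10 calls among these lists was lost in at least 1.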

How the data were processed

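RNA from 6 livers (male Mettl14f/f mice, HFD) was sequenced in bulk, and samples were grouped by the vector in their titles. The authors deposited expected counts and FPKM per transcript and FPKM per gene for each liver. Expected counts divide fragments shared by transcripts and are not normalized (45.4% were whole within 1e-05), and FPKM scales fragments by transcript length and library. The study's methods name STAR, HTSeq and DESeq2, whereas the submitters' processing notes name HISAT2, Bowtie2, RSEM and mm10, and versions are not given in the sources used here. The libraries were made after oligo dT selection or rRNA depletion, and the labels do not say which.

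Expected counts were summed per NCBI gene ID, rounded, scaled by TMM and filtered with filterByExpr. Groups were compared with edgeR 4.0.16 (R 4.3.3, quasi-likelihood test), with the vector as the only factor and Benjamini-Hochberg adjustment over 13431 genes. Genes were called at an unadjusted p-value under 0.05 with a fold of at least 1.2. Intervals are 95% intervals of the fit, and SDs are between mice. The totals set counting error, which is largest for genes near 1 CPM. Replicates differed by more than sampling noise (chi-square per gene of at least 24.9 for every pair). Only the plain comparison of the groups with edgeR, DESeq2 and limma was checked on simulated counts. The other fits, the ratios, the likeness measure and the motif searches were not checked in this way. Alternatives were DESeq2 1.42.0, limma 3.58.1 on log2(FPKM + 1) or log2(FPKM + 0.1), other scalings and filters, a fold of 1.5, a replicate block, a covariate for the form of the library name, and leaving out each liver. A fit without the 10 most abundant genes other than Ahsg was chosen after seeing the data.

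The text names the 9 members, every called gene of 9 lists of receptors, partners and regulators (in a list with none, the gene with the smallest p), the 3 genes nearest to each member with an SD of at least 0.5 of log2 CPM, and Mettl14. Other genes of these lists were named after their values were seen. Marker lists of 9 cell types or groups, from hepatocytes to adipocytes, were counted in the same fit. The members and lists were chosen with earlier results of these data known. Promoters and loci are those of RefSeq on GRCm38.p6, the assembly of mm10, and transcripts were those of GENCODE vM1 on NCBIM37, searched for motifs only. No sample was left out. A few listed genes are counted but not reported by name here.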

Additional observations from a re-analysis of the deposited data

How the results depend on the processing

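Gdf15, Angptl4 and Angptl6 kept their direction and their call in all 17 alternative fits, with log2 fold changes from -1.78 to -1.14, from -1.20 to -0.71 and from -1.32 to -0.69. Ahsg kept its direction in all 17 and lost its call in 7, of which 3 leave out a liver, 1 uses the replicate block and 1 the form of the library name, and the other 2 have no filter on low values (log2 fold change 0.52 in edgeR and 0.70 in limma). Ahsg was at 0.46 with the name form in the fit, and the cause was not tested. The sign of Fgf21 turned without AAV8-TBG-GFP replicate 3 (0.067). The sign of Fetub turned under upper quartile scaling (0.054), with at least 10 counts in every library (0.0093), in limma with either pseudocount (0.15 and 0.15) and without a filter (0.15), and without AAV8-TBG-GFP replicate 3 (0.084) or AAV8-TBG-Cre replicate 2 (0.14). The sign of Lect2 turned in limma (0.075, 0.075 and 0.075) and without AAV8-TBG-Cre replicate 3 (0.051). The median of all genes was itself at 0.056 under upper quartile scaling and at 0.11, 0.14 and 0.066 in the limma fits with a pseudocount of 1, of 0.1 and without a filter. With 1 liver left out, Fetub ran from -0.13 to 0.14 and Lect2 from -0.23 to 0.051, the genes called ran from 1899 to 3730 and those called by adjusted p from 0 to 928, and members called by adjusted p from 0 to 1.

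With a fold of at least 1.5, 1699 genes were called in place of 2747, and 3 of the 9 members in place of 4. By adjusted p, the count of 125 became 1157 in DESeq2 (4 of the 9 members in place of 0), 66 under upper quartile scaling, 372 without a filter, 76 with at least 10 counts in every library, 214 with the form of the library name, and 22, 27 and 9 in limma with a pseudocount of 1, of 0.1 and without a filter. No leave-one-out fit could be made for the values within a form of the library name, which hold 3 livers each and have no test.

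The labels do not say whether the replicate numbers in the titles pair the mice. Correlations of deviations within groups of 3 cannot decide it, since each group is centred on its own mean. Deviations from the group means correlated at 0.0091, -0.26 and 0.21 for numbers 1, 2 and 3, and AAV8-TBG-Cre replicate 1 correlated best with AAV8-TBG-GFP replicate 2 (0.31). With the replicate number as a block, 7 genes passed by adjusted p, 2597 in place of 2747 were called, and 3 members were called. Ahsg was then at 0.53 (adjusted p = 0.270 in edgeR) and lost its unadjusted call, and no other member changed its call.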
